A study of Homo sapiens with 6 samples.

Results

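The genes described here make, cut and bind hyaluronan: the synthases HAS1, HAS2 and HAS3, the degrading enzymes CEMIP, HYAL1, HYAL2 and HYAL3, and the receptors CD44 and HMMR. These 9 genes were taken by symbol from a deposited table of 58735 genes. They were chosen by family, and selected on the FPKM of the 3 wild-type and 3 knockout libraries, which were already known. Their levels and differences in that contrast are therefore a description, and no p-value is given for any of them. The cells were HT1080, an established line from a human fibrosarcoma, as 3 wild-type (WT) libraries and as 3 libraries of the same line with GPR56 knocked out by CRISPR-Cas9 (KO). GPR56, approved symbol ADGRG1, is an adhesion G protein-coupled receptor. The sample descriptions of both genotypes carry the name of the solvent DMSO, with no dose or time. The labels do not say how many KO clones were used or whether libraries of a genotype came from separate cultures, so the spread between libraries may be technical.

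Hyaluronan is a long unsulfated sugar polymer of the matrix around cells. The synthases sit in the plasma membrane and build it from UDP-glucuronic acid and UDP-N-acetylglucosamine, pushing the growing chain out of the cell. Hyaluronidases and CEMIP cut it, and fragments and long chains are bound by receptors such as CD44. Fibroblasts and many mesenchymal tumours coat themselves with hyaluronan, and HAS2 is the synthase most often linked to that coat.

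In KO cells the mRNA of HAS2, the most abundant synthase in WT, was lower and that of CEMIP was higher. The mean HAS2 level was 4.21-fold lower, 5.95 ± 0.21 FPKM against 1.41 ± 0.26 FPKM (WT against KO; SD, n = 3 each). The mean CEMIP level was 4.79-fold higher, 6.81 ± 0.72 FPKM against 32.6 ± 2.4 FPKM. HMMR was lower, HYAL2 and HYAL3 were slightly higher, and HAS1 and HYAL1 were close to undetected in both genotypes. In bulk RNA, fewer cells with an mRNA and less of it per cell cannot be told apart. FPKM are reads scaled by gene length and by library size. The length covers all annotated exons of a gene and not the transcript expressed, so comparisons of level between genes are approximate.

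The libraries held 16410352 to 17276269 reads recovered from the deposited values, 1 read in a gene of 1 kb being worth 0.0581 to 0.0602 FPKM. ADGRG1 mRNA measured 6.61, 6.07 and 6.87 FPKM across the WT libraries against 2.68, 2.54 and 2.58 FPKM across the KO libraries, reduced and still present in every KO library. Mesenchymal markers were present: 9 of 10 (VIM, FN1 and CDH2 among them, THY1 the exception) had a mean of at least 1 FPKM, and their summed level was 1243 to 1282 FPKM in WT and 1481 to 1532 FPKM in KO. Markers of other cell types summed to 0.345 to 0.410 FPKM (8 epithelial), 1.43 to 1.71 (8 leukocyte), 0.690 to 0.830 (6 endothelial) and 0.357 to 0.551 (6 hepatocyte) in WT. In KO these sums were 0.901 to 1.005, 2.69 to 3.14, 1.58 to 1.88 and 0.489 to 0.849 FPKM. Of these markers of other cell types, only the leukocyte marker CSF1R had a mean of at least 1 FPKM, with 1.25 to 1.61 FPKM in WT and 2.47 to 2.78 FPKM in KO. CDH1, KRT14, GRHL2, PTPRC, MS4A1 and ALB had no read in any library. The part of these low signals in the results was not tested. The whole table showed a trend with GC content that ran with genotype. With the tested genes in 4 equal groups by GC content, the median difference was −0.26 in the lowest group (GC up to 42.1%) and 0.17 in the highest (GC from 56.1%), both on the log2(FPKM + 1) scale. Values after this trend and a trend with gene length were removed are given for the members that passed and for CD44. For other named genes they are given where the correction made or ended a call, and for some whose called difference shrank. Other called differences shrank too and stayed called, such as SEMA3B (0.77 to 0.56), HAPLN3 (0.79 to 0.59) and PGM2 (−0.85 to −0.65).

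Of the 9 genes, 7 had a mean of at least 1 FPKM over the 6 libraries and entered the fit across 12000 genes (limma on log2(FPKM + 1), Benjamini-Hochberg threshold 0.05). None of the 7 entered through 1 genotype alone: the lowest value of any of them in any library was 1.15 FPKM. Of these 7, 5 passed the threshold, CEMIP, HYAL2 and HYAL3 higher and HAS2 and HMMR lower in KO. Of all genes tested 43.4% passed (21.0% higher and 22.4% lower), and nothing is read from the comparison of these shares because the genes were chosen with this contrast known. HAS3 and CD44 were tested and did not pass. Counting libraries alone, 6 of the 7 had no overlap between the genotypes, 4 of them higher and 2 lower in KO, beside 54.7% of all tested genes (26.4% higher and 28.3% lower). The median difference over all tested genes was −0.01 on the log2(FPKM + 1) scale.

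**Figure D1:**
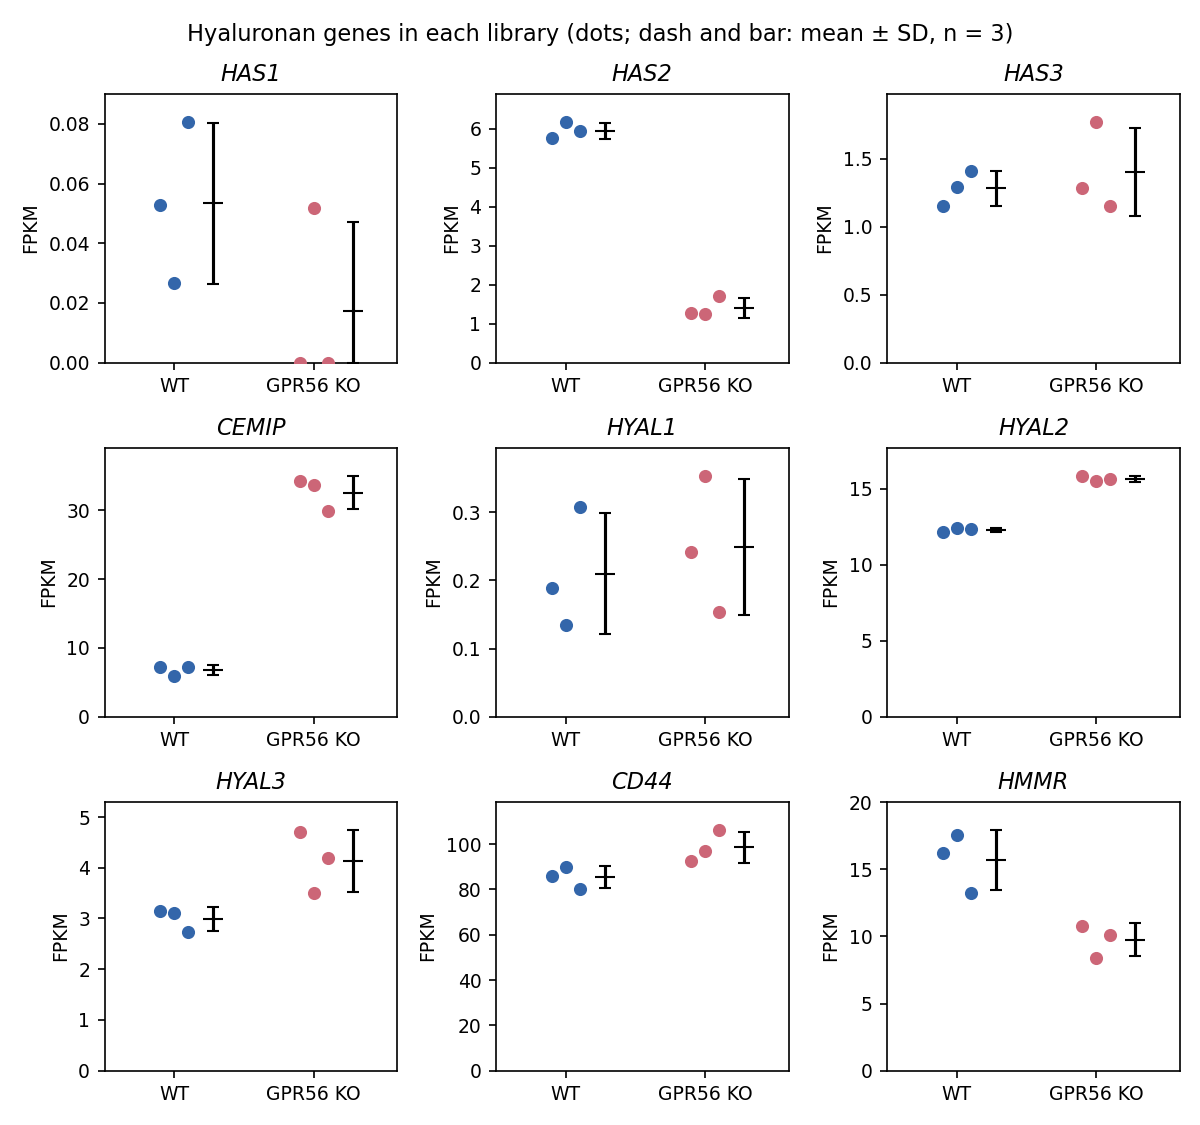
FPKM of the 9 hyaluronan genes in each library, 1 panel per gene with its own linear axis from 0; dots are libraries and the dash with its bar is the mean ± SD of 3, the bar stopping at 0. HAS2 lies near 6 FPKM in WT and below 2 in KO, CEMIP near 7 in WT and at 29.9 FPKM or more in KO, while HAS1, HAS3 and HYAL1 overlap between genotypes.

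Among the synthases, HAS2 is an enzyme of long chains (ENSG00000170961, minus strand of chromosome 8, positions 121612116 to 121641390 on GRCh38). WT libraries held 5.76, 6.16 and 5.94 FPKM, and KO libraries 1.28, 1.25 and 1.71 FPKM. The groups did not overlap, and KO 3 was the highest of the low group. These values rest on 408 to 430 reads per WT library and 90 to 119 reads per KO library. The difference was −1.53 (SE 0.09) on the log2(FPKM + 1) scale, the 58th in size among the 6091 tested genes with a negative difference. The longest HAS2 transcript has a GC content of 36.9%, inside the lowest of these groups, and the difference was −1.20 (SE 0.08) after the GC and length trends were removed. Without the damping of the pseudocount it was larger, −2.12 with limma-voom on the recovered reads. HAS2-AS1, an antisense RNA that shares 201 exonic bases with HAS2, had 9 WT reads and 15 KO reads in all, against 1252 and 301 for HAS2. Of the nearest tested genes, SNTB1, a syntrophin gene 798843 bases away, fell from 2.15 ± 0.09 to 1.58 ± 0.16 FPKM (limma adjusted p = 0.0253; 0.0574 to 0.0879 without WT 1, WT 2, KO 2 or KO 3, and 0.0808 with these trends removed), and ZHX2 was at 1.77 ± 0.11 and 1.54 ± 0.09 FPKM (adjusted p = 0.26).

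HAS3 (ENSG00000103044, plus strand of chromosome 16, positions 69105564 to 69118719), a synthase known for shorter chains, measured 1.15, 1.29 and 1.41 FPKM in the WT set against 1.29, 1.77 and 1.15 FPKM in the KO set. The groups overlapped, and the difference of 0.07 (SE 0.12) on the log2(FPKM + 1) scale was smaller than its error. HAS3 lies on the same chromosome arm as ADGRG1, in a stretch where lower genes were common. Within 5 Mb on either side, 42 of 84 tested genes were lower in KO, 4 were higher, and the median difference was −0.24. Of all tested genes 22.4% were lower and 21.0% higher, and the counts around HAS3 were made without the GC and length correction. Of its neighbours, UTP4 fell from 33.2 ± 1.8 to 25.0 ± 2.2 FPKM (SD, n = 3; limma adjusted p = 0.00675) and TANGO6 was at 3.64 ± 0.19 and 3.15 ± 0.08 FPKM (adjusted p = 0.0852; 0.0287 after the GC and length correction). HAS3 shares 6.90% of its exonic bases with CHTF8 on the opposite strand, at 32.3 ± 2.7 and 32.8 ± 2.8 FPKM. Whether the counting used strand is not stated, so reads in that overlap cannot be assigned with certainty. HAS1 (chromosome 19, from position 51713112) had 2, 1 and 3 reads in the WT libraries and 0, 2 and 0 in the KO libraries. A level was not measurable at this depth in either genotype, and its neighbours SPACA6 and FPR1 did not pass (limma adjusted p = 0.604 and 0.084).

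With the sum of the synthases set against its parts, the difference lay mainly in HAS2. Summed over HAS1, HAS2 and HAS3, WT libraries reached 6.96, 7.49 and 7.43 FPKM, KO libraries 2.57, 3.07 and 2.86 FPKM. HAS2 made up 82.7%, 82.3% and 79.9% of that sum in WT and 49.8%, 40.7% and 59.8% in KO. HAS3 made up 17.6 ± 1.2% in WT and 49.3 ± 8.7% in KO (SD, n = 3). The KO libraries thus held similar levels of both mRNAs, KO 2 more HAS3 than HAS2 and KO 3 more HAS2 than HAS3. The KO values rest on 301 HAS2 reads and 379 HAS3 reads over the 3 libraries, against 1252 and 341 in WT.

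**Figure D2:**
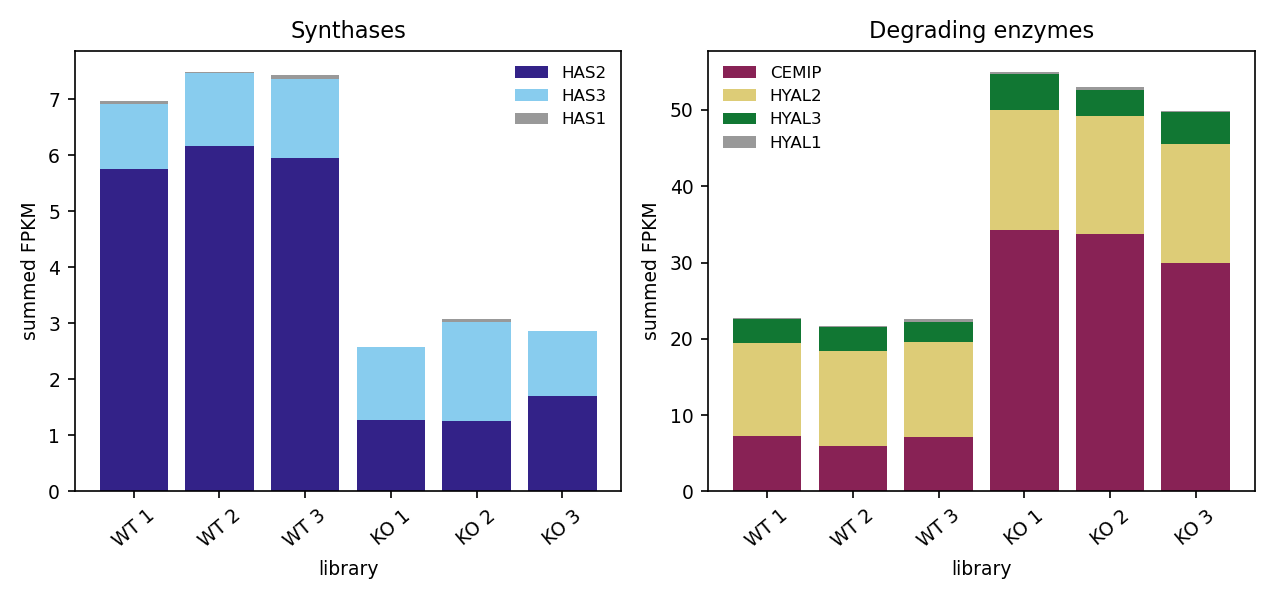
Summed FPKM of the synthases (left) and of the degrading enzymes (right) in each library, stacked by gene on axes that start at 0. The synthase sum is 6.96 to 7.49 FPKM in WT and 2.57 to 3.07 FPKM in KO with a HAS3 layer of similar height in both; the degrading-enzyme sum is 21.6 to 22.7 FPKM in WT and 49.9 to 55.0 FPKM in KO, mostly through CEMIP.

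Among the degrading genes, CEMIP (also named KIAA1199 or HYBID; ENSG00000103888, plus strand of chromosome 15, positions 80779343 to 80951776) encodes a protein that binds hyaluronan and is needed for its depolymerisation by skin fibroblasts. Its promoter stretch is shown because this gene had the largest difference in the family. The run lies at chr15:80779120-80779342 on GRCh38.p14, plus strand, from RefSeq, and stops before the first base annotated as transcribed. Capitals mark the GC box letters GGGCGG on either strand.
CEMIP: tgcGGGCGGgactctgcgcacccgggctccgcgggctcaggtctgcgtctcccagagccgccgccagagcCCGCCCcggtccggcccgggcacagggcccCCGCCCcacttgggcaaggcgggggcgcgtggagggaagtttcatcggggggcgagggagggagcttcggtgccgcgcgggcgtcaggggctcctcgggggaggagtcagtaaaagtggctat
This stretch is 74.9% G and C. The window of 250 bases before to 50 after the RefSeq start holds 3 GC boxes, whose letters occur in 45.0% of 35116 such windows, and 1 TATA box (TATAAA, 30 bases before the start; 11.5% of windows on either strand). RefSeq starts CEMIP farther downstream than the annotation of the deposited table. The TATA letters therefore begin at the end of the run shown and reach into the gene positions given above. The letters TGANTCA of an AP-1 site (7.71% of windows) were not in this window on either strand. RefSeq windows were found for 8 of the 9 genes, HAS2 not among them.

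CEMIP reached 7.26, 5.97 and 7.19 FPKM with the receptor present (758 to 936 reads per library) and 34.2, 33.7 and 29.9 FPKM with it knocked out (3785 to 4477 reads). The groups were far apart, the lowest KO library lying above the highest WT library. The difference was 2.11 (SE 0.09) on the log2(FPKM + 1) scale, the 14th among 5909 tested genes with a positive difference, and 2.02 (SE 0.07) after the GC and length trends were removed. CEMIP and HAS2 were the members with a ratio of means above 4-fold, a size reached upward by 0.742% and downward by 0.683% of tested genes. ABHD17C, a depalmitoylase gene 23722 bases from CEMIP, rose from 11.6 ± 1.9 to 20.0 ± 2.4 FPKM (limma adjusted p = 0.00334). MESD, which shares 2.94% of the CEMIP exonic bases on the opposite strand and encodes a chaperone of LDL-receptor family proteins, fell from 10.3 ± 0.1 to 8.62 ± 0.25 FPKM (adjusted p = 0.0111; 0.051 without WT 1). Within 5 Mb of CEMIP 11 of 51 tested genes were higher and 10 lower, beside 21.0% and 22.4% of all tested genes.

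HYAL2, HYAL1 and HYAL3 lie side by side on the minus strand of chromosome 3. HYAL2 (ENSG00000068001, positions 50317790 to 50322906), a membrane-anchored hyaluronidase of the cell surface, gave 12.1, 12.4 and 12.3 FPKM in WT against 15.8, 15.5 and 15.6 FPKM in KO. The libraries of each genotype were tight and the groups did not overlap, with a KO to WT ratio of 1.27. HYAL3 (ENSG00000186792, positions 50292831 to 50299468), whose enzymatic role is less well defined, gave 3.14, 3.11 and 2.72 FPKM in WT against 4.71, 3.49 and 4.18 FPKM in KO, a ratio of 1.38 from 92 to 164 reads per library. HYAL1 (ENSG00000114378, positions 50299889 to 50312381), the lysosomal enzyme that finishes chains to short fragments, was under the filter with 10, 7 and 16 reads in WT and 13, 19 and 8 in KO.

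The small differences of this cluster shrank when the GC and length trends were removed. Both trends were removed together, so their parts were not told apart. The longest transcripts of HYAL2 and HYAL3 have GC contents of 62.8% and 60.9%, in the highest of the 4 GC groups, and with the trends removed the differences went from 0.32 (SE 0.05) to 0.12 (SE 0.07) and from 0.36 (SE 0.10) to 0.15 (SE 0.12) on the log2(FPKM + 1) scale, neither past the threshold. HYAL3 passed under 5 of the 14 alternative settings that tested it. It did not without WT 1 (difference 0.38), WT 3 (0.31), KO 1 (0.28) or KO 3 (0.35). HYAL2 passed under 13 of 15. Within 5 Mb of HYAL2, without the correction, 41 of 121 other tested genes were higher and 12 lower, with a median of 0.12. Of all tested genes 21.0% were higher and 22.4% lower, and of the highest GC group 35.4% and 8.57%. The part of GC content in these window counts was not tested. HYAL2 shares 11.2% of its exonic bases with TUSC2 and HYAL3 12.2% with NAA80, both on the same strand. TUSC2 rose from 16.3 ± 2.5 to 22.3 ± 2.6 FPKM (limma adjusted p = 0.0252; 0.0638 to 0.083 without WT 1, WT 2, KO 1 or KO 2, and 0.0531 with these trends removed) and NAA80, an actin N-acetyltransferase gene, from 5.47 ± 0.81 to 7.05 ± 0.60 FPKM (adjusted p = 0.0459; 0.0566 to 0.136 without WT 1, WT 2, KO 1, KO 2 or KO 3, and 0.257 after the correction). Reads in the shared exons cannot be divided between such pairs with certainty. SEMA3B, a secreted semaphorin gene 15285 bases from HYAL3, rose from 1.06 ± 0.13 to 2.54 ± 0.43 FPKM (adjusted p = 0.00162), while RASSF1, beside HYAL2, a tumour suppressor gene, was at 5.68 ± 0.72 and 4.84 ± 0.22 FPKM (adjusted p = 0.13; lower at 0.0387 after the correction).

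By FPKM, the order of the degrading enzymes differed between the genotypes. In WT HYAL2 led with 55.2 ± 2.0% of the summed FPKM of the 4 genes, ahead of CEMIP with 30.5 ± 2.5%, HYAL3 with 13.4 ± 1.2% and HYAL1 with 0.937 ± 0.382% (SD, n = 3). In KO CEMIP led with 61.9 ± 1.8%, ahead of HYAL2 with 29.8 ± 1.4%, HYAL3 with 7.85 ± 1.09% and HYAL1 with 0.471 ± 0.181%. As shares of reads not divided by length, HYAL2 and CEMIP were close in WT, 48.9 ± 2.6% and 45.2 ± 2.9%. CEMIP was slightly ahead in WT 1 (47.1% against 47.0%). In KO these shares were 21.7 ± 1.2% for HYAL2 and 75.5 ± 1.3% for CEMIP. Within single libraries the CEMIP to HAS2 ratio of FPKM came to 1.26, 0.969 and 1.21 in WT against 26.8, 27.0 and 17.5 in KO. WT libraries held similar levels of both mRNAs per length, and KO libraries 17.5 to 27.0 times as much CEMIP as HAS2.

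The receptors differed from one another. CD44 (ENSG00000026508, plus strand of chromosome 11, positions 35138870 to 35232402), the main cell-surface hyaluronan receptor, was by far the most abundant gene of the family in every library. WT libraries showed 86.1, 90.1 and 80.3 FPKM, KO libraries 92.6, 96.8 and 106.1 FPKM. The groups did not overlap but lay close, with a ratio of 1.15 and a difference of 0.20 (SE 0.08) on the log2(FPKM + 1) scale that did not pass the threshold. With the GC and length trends removed it was 0.26 (SE 0.06) and passed. The flanking genes PDHX and FJX1 did not pass (limma adjusted p = 0.738 and 0.352; FJX1 was lower at 0.0145 after the correction), nor did the antisense RNA CD44-AS1 (1.63 ± 0.27 and 1.78 ± 0.85 FPKM; 0.932). GENCODE lists 39 CD44 transcripts, and the gene-level value sums the standard and variant forms. ESRP1 and ESRP2, the epithelial splicing regulators that favour variant exons, had totals of 3 and 32 reads in WT, and of 2 and 21 reads in KO.

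HMMR (also named RHAMM; ENSG00000072571, plus strand of chromosome 5, positions 163460203 to 163491945) encodes a hyaluronan-binding protein that also sits on the mitotic spindle. WT libraries gave 16.2, 17.6 and 13.3 FPKM, KO libraries 10.8, 8.38 and 10.1 FPKM. The lowest WT library lay above the highest KO library, and the ratio of WT to KO was 1.61. The difference of −0.63 (SE 0.12) on the log2(FPKM + 1) scale was −0.30 (SE 0.08) after the GC and length trends were removed, the longest HMMR transcript having a GC content of 36.7%, and it passed the threshold in both cases. NUDCD2, which starts 63 bases from HMMR, was at 3.90 ± 0.08 and 3.60 ± 0.20 FPKM (limma adjusted p = 0.279; higher, by 0.26 on the log2 scale at 0.0217, after the correction) and MAT2B, on the other side, at 12.9 ± 1.5 and 11.4 ± 1.7 FPKM (adjusted p = 0.301).

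A short stretch before the RefSeq start of HMMR is shown because its letters recur in genes of the cell cycle. It spans chr5:163460595-163460624 on GRCh38.p14, plus strand, from RefSeq, and capitals mark TTTGAA, the core of the element called CHR, which is bound by repressor and activator complexes of cell cycle genes. RefSeq starts this gene farther downstream than the annotation of the deposited table, so the stretch lies within the gene positions given above.
HMMR: gtggggagaTTTGAATTTGAAaccggtagg
The element occurs here in 2 adjoining copies, 28 and 22 bases before the RefSeq start. TTTGAA was in 15.2% of all windows on either strand, and in any window of 7 of the 15 mitotic genes below that had one. CCAAT, searched on both strands, was found 5 times in the HMMR window, in 34.6% of all windows and in any window of 14 of these 15 genes. A gene can have several windows, so shares of windows and counts of genes are unlike measures, and enrichment was not tested. A match in letters is not evidence of binding.

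**Figure D3:**
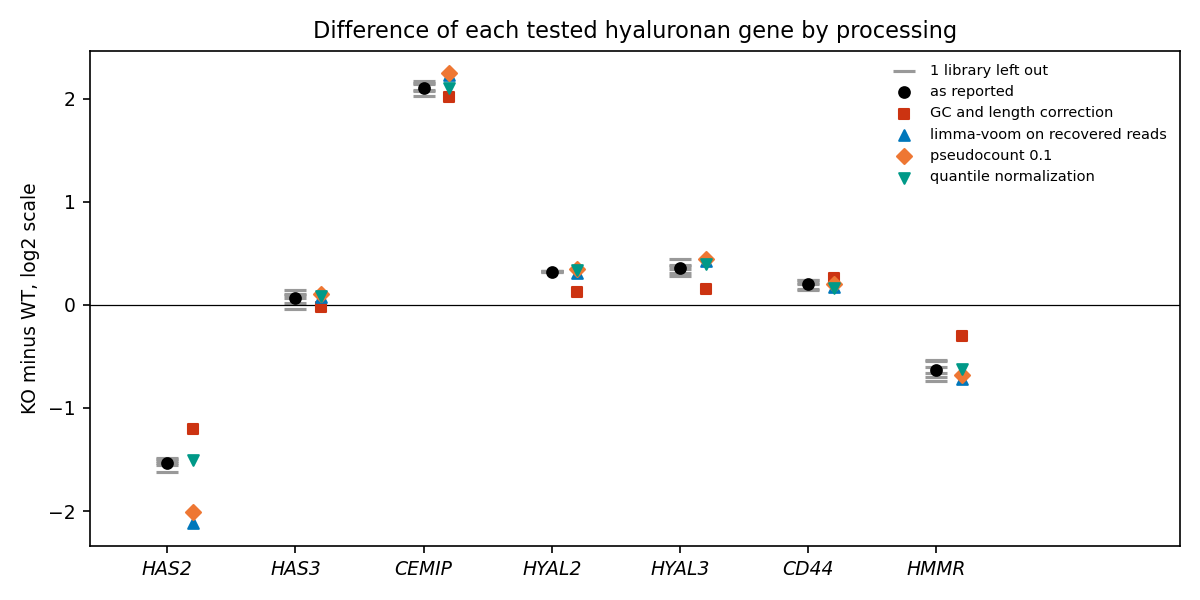
KO minus WT difference of each tested hyaluronan gene on a log2 scale (vertical axis) under the reported setting (black dots), 4 alternative settings (coloured symbols) and with 1 library left out (grey dashes). HAS2, CEMIP and HMMR keep their side of 0 in all of them, HYAL2 and HYAL3 move toward 0 after the GC and length correction, and HAS3 lies on both sides of 0.

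The rest of the pathway was followed in 7 lists of 119 genes, 89 of which were tested. Among the 89, 31 fell, 25 rose and 33 did neither (43.4% of all genes tested passed). The median difference was −0.06 on the log2(FPKM + 1) scale. Only BCAN, FBLN1 and PDGFRB entered the fit with a mean under 1 FPKM in 1 genotype.

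Genes that supply the sugar nucleotides moved in both directions. Among the 19 tested, 9 fell, 3 rose and the other 7 stayed under the threshold (median −0.21). GFPT2, an isoform of the first enzyme of the hexosamine pathway, rose from 55.8 ± 1.5 to 93.5 ± 2.4 FPKM (limma adjusted p = 0.00014). GFPT1, the other isoform of that enzyme and named after its values were seen, fell from 7.32 ± 0.50 to 5.26 ± 0.47 FPKM (adjusted p = 0.0058; 0.185 after the GC and length correction). UAP1, which makes UDP-N-acetylglucosamine in the last step, fell from 55.6 ± 4.3 to 28.2 ± 1.8 FPKM (adjusted p = 0.000184). The phosphoglucomutases moved apart, PGM1 rising from 9.33 ± 0.74 to 16.5 ± 0.5 FPKM and PGM2 falling from 31.5 ± 1.4 to 17.1 ± 0.8 FPKM. UGDH, singled out after its values were seen because it makes the other precursor, UDP-glucuronic acid, fell from 10.3 ± 0.8 to 7.58 ± 0.49 FPKM (adjusted p = 0.00536; 0.0545 after the GC and length correction). With that correction 3 of the 19 rose and 4 fell.

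A list of other glycosidases and relatives of the degrading enzymes has 7 genes that are reported, of which 4 were tested: 3 rose, 0 fell, and HEXA stayed under the threshold (median 0.27; HEXA was higher at a limma adjusted p of 0.0394 after the GC and length correction). IDUA, a lysosomal iduronidase, acts on other glycosaminoglycans and not on hyaluronan, which has no iduronic acid. It rose from 1.74 ± 0.08 to 3.20 ± 0.49 FPKM (limma adjusted p = 0.00285), with a difference of 0.61 on the log2(FPKM + 1) scale and 0.36 after the correction. CEMIP2, a membrane relative of CEMIP, rose from 8.10 ± 0.18 to 9.82 ± 0.43 FPKM (adjusted p = 0.0123), a ratio of 1.21 against 4.79 for CEMIP. GUSB, the lysosomal glucuronidase, rose from 13.7 ± 1.2 to 16.8 ± 0.8 FPKM (adjusted p = 0.0217), a call that 8 of 15 alternative settings did not give, the GC and length correction among them (0.0504). Leaving out WT 1, WT 2, KO 1 or KO 2 put its adjusted p at 0.0833, 0.0555, 0.0721 and 0.065. Without KO 2 the adjusted p of CEMIP2 was 0.0572, and the list held 1 call. SPAM1 and the pseudogene HYAL6P had 0 reads and HYAL4 had 5 and 1 over the 3 libraries of WT and KO.

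Among 24 genes whose products bind or organise hyaluronan, 10 were tested, with 6 higher, 2 lower and 2 under the threshold (median 0.31). Of all tested genes 21.0% were higher and 22.4% lower. C1QBP, 1 of the 6 and named after its values were seen, rose from 203.3 ± 15.6 to 246.5 ± 18.1 FPKM (limma adjusted p = 0.034). It passed in 6 of 15 alternative settings. It did not pass after the GC and length correction (0.107) or without WT 1, WT 3, KO 2 or KO 3. SUSD5, which carries a hyaluronan-binding link domain, rose from 6.29 ± 0.57 to 12.0 ± 1.0 FPKM (limma adjusted p = 0.000422). HAPLN3, a link protein that ties hyaluronan to proteoglycans, rose from 1.96 ± 0.28 to 4.09 ± 0.33 FPKM. FBLN1, a fibulin that binds the proteoglycan versican, rose from 0.645 ± 0.052 to 1.89 ± 0.08 FPKM. With a WT mean under 1 FPKM it entered the fit only through its KO level, so its call is a description. PTX3, a pentraxin of the hyaluronan-rich matrix, fell from 36.6 ± 0.4 to 24.6 ± 0.9 FPKM (adjusted p = 0.000365). TNFAIP6, under the filter and named after its values were seen, transfers heavy chains onto hyaluronan and had 36 reads over WT and 6 over KO. FBLN2, also under the filter and named after its values were seen, went the other way, with 100 reads over WT and 385 over KO. ITIH1, ITIH4, HAPLN1, HAPLN4 and HABP2 had 0 reads in all libraries.

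Among 10 other receptors 3 were tested. LAYN, a hyaluronan-binding membrane lectin, rose from 15.4 ± 0.4 to 19.0 ± 0.9 FPKM (limma adjusted p = 0.00747), and TLR4, a pattern receptor that responds to hyaluronan fragments, fell from 2.42 ± 0.17 to 1.76 ± 0.03 FPKM (adjusted p = 0.0146; 0.0645 without WT 1 and 0.799 after the GC and length correction). PTPRJ did not pass. LYVE1, the lymphatic hyaluronan receptor, had 0 reads over WT and 1 over KO.

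Partners, ligands and proteases of CD44 numbered 16 tested genes, with 3 higher, 3 lower and 10 under the threshold (median −0.05). The linker proteins that join its tail to actin stayed under the threshold and are named after their values were seen, as background to the receptor: EZR was at 85.5 ± 0.8 and 93.3 ± 5.9 FPKM (limma adjusted p = 0.168), RDX at 13.3 ± 1.4 and 11.7 ± 0.8 (0.177) and MSN at 197.5 ± 5.4 and 178.7 ± 6.1 (0.0937; lower at 0.0146 after the GC and length correction). MMP9, a gelatinase that docks on CD44, rose 7.63-fold (adjusted p = 5.90e-07). SPP1, the CD44 ligand osteopontin, fell from 4.84 ± 0.51 to 2.03 ± 0.31 FPKM (adjusted p = 0.000507). SRGN, serglycin, fell from 116.6 ± 17.6 to 76.4 ± 4.6 FPKM, a difference of −0.59 on the log2(FPKM + 1) scale and −0.32 after the correction. HBEGF, a growth factor held by heparan sulfate on CD44, fell from 37.5 ± 1.2 to 23.7 ± 1.0 FPKM.

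HMMR stood among mitotic genes that split. Out of 18, 9 fell, 1 rose and the other 8 stayed under the threshold (median −0.29). The gene that rose, TUBG1, named after its values were seen, did not pass in 8 of 15 alternative settings (limma adjusted p = 0.0688, 0.0873 and 0.0544 without WT 1, KO 2 or KO 3, and 0.11 with the GC and length trends removed). KIF11, a spindle motor, fell from 21.5 ± 1.8 to 11.9 ± 0.9 FPKM (limma adjusted p = 0.000423) and FAM83D, a spindle protein that binds HMMR, from 26.2 ± 0.7 to 17.3 ± 1.2 FPKM. BRCA1, whose complex with BARD1 acts on HMMR, fell from 5.87 ± 0.57 to 3.22 ± 0.32 FPKM, and the kinase gene CDK1 fell to a ratio of 0.524. The GC and length correction took the difference of KIF11 from −0.81 to −0.52 and that of CDK1 from −0.88 to −0.57 on the log2 scale. BRCA1 went from −0.70 to −0.54, while FAM83D went from −0.58 to −0.67. With that correction 11 of the 18 genes fell and 1 rose, CCNB1 (limma adjusted p = 0.047). Of 2 genes named as background to HMMR after their values were seen, TPX2, the HMMR partner that activates Aurora A, was at 86.4 ± 4.1 and 83.4 ± 5.7 FPKM (adjusted p = 0.602), and AURKA at 39.4 ± 1.2 and 38.3 ± 3.1 FPKM (0.684).

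Regulators known to act on the synthases numbered 19 tested genes, with 8 higher, 7 lower and 4 under the threshold (median −0.09). PDGFRB, a receptor whose ligand induces HAS2 in mesenchymal cells, rose from 0.611 ± 0.110 to 3.60 ± 0.18 FPKM. With a WT mean under 1 FPKM it entered the fit only through its KO level, so its call is a description. Of the transcription factor genes, KLF4 rose 4.05-fold and STAT3 from 13.9 ± 0.5 to 21.2 ± 0.5 FPKM. The cytokine gene IL1B rose from 17.4 ± 1.4 to 30.2 ± 2.3 FPKM (adjusted p = 0.000525). PDGFRB, KLF4, STAT3 and IL1B had the smallest adjusted p of the list. All 4 rose, while 7 other genes of the list fell. Among those 7 was the transcription factor gene KLF2, named after its values were seen. It fell from 74.0 ± 10.8 to 35.8 ± 5.9 FPKM (limma adjusted p = 0.00127).

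**Figure D4:**
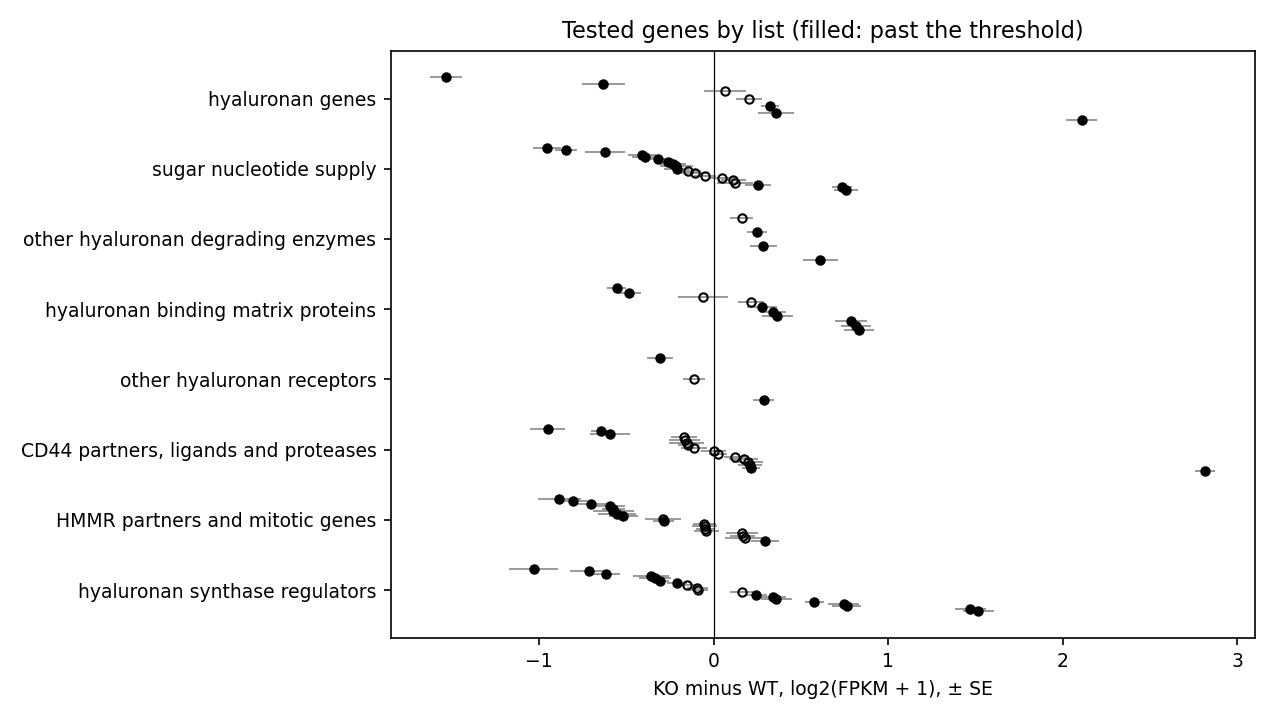
KO minus WT difference of every tested gene on the log2(FPKM + 1) scale (horizontal axis, bars are SE) for the hyaluronan genes and the 7 pathway lists; filled dots passed the limma threshold. CEMIP at 2.11 and MMP9 at 2.82 lie farthest to the right and HAS2 at −1.53 farthest to the left.

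The genes whose profile over the 6 libraries was nearest to that of each of the 2 members with the largest differences were found by root mean square distance between centred log2(FPKM + 1) values. For HAS2 these were EEF1A2 (0.07), SH2D4A (0.09) and CD22 (0.09). EEF1A2, a tissue-restricted elongation factor, measured 35.8 ± 2.8 FPKM against 11.9 ± 1.5 FPKM (WT against KO). For CEMIP they were EBI3 (0.09), APOBEC3G (0.10) and TSPAN15 (0.10). EBI3, a cytokine subunit, was at 0.837 ± 0.162 and 6.32 ± 0.70 FPKM, and the tetraspanin gene TSPAN15 at 0.467 ± 0.080 and 6.03 ± 0.70 FPKM. Such distances rest largely on the KO minus WT difference (−1.53 for HAS2, −1.52 for EEF1A2), which was known when the members were chosen. Nearness is therefore a description, and joint regulation was not tested. SH2D4A, EBI3 and TSPAN15 had a mean under 1 FPKM in 1 genotype and entered the fit through the other.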

How the data were processed

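The authors deposited 1 table of FPKM values for 58735 genes in 6 libraries, mapped to samples by column name. The aligner, counter and use of strand are not stated in these sources. Builds named in the submitters' processing notes are GRCm38 and mm10, yet 58735 of 58735 positions equal human GENCODE release 29 on GRCh38. Deposited FPKM times gene length gave whole reads (100.0% of values above 0 within 0.02), used for read numbers and for limma-voom as an alternative. The test was limma 3.58.1 in R 4.3.3 (eBayes with trend, two-sided, genotype as the only term, all 6 libraries) on log2(FPKM + 1) for genes with a mean of at least 1 FPKM, with Benjamini-Hochberg adjustment at 0.05 over all of them; a pseudocount of 1 understates changes of low genes. It was tested on simulated data first. GC content is that of each gene's longest transcript, and its trend and that of length were removed per library by loess. Counting limits cover counting error only. The members, lists and rules were chosen with earlier results of these data known; 1 gene of the list of other degrading enzymes is not reported here. Named were ADGRG1, the members, up to 4 genes per pathway list by adjusted p past the threshold, overlapping and nearest tested genes, and the 3 nearest profiles of 2 members; most overlapping genes under a mean of 1 FPKM are not discussed, and all other genes given were chosen after their values were seen. Alternatives covered pseudocount, filter, scaling, voom, GC and length, a block and each library left out.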

Additional observations from a re-analysis of the deposited data

How the results depend on the processing

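HAS2, CEMIP and HMMR kept their direction and passed in every alternative that tested them (14, 15 and 15), with differences of −2.12 to −1.20, 2.02 to 2.25 and −0.74 to −0.30. HYAL2 lost its call after the GC and length correction with and without the replicate block, and HYAL3 in 9 of 14 settings. CD44 passed in 2 of 15, both with that correction, and HAS3 in 0 of 14. A filter at a mean of 5 FPKM left 3 members of 4 tested and 3203 genes called, fewer genes being tested. HAS2 made up 78.3% of synthase reads in WT and 44.6% in KO when reads were not divided by length. HAS3 then made up 55.2% in KO. By summed FPKM the KO means were 50.1% for HAS2 and 49.3% for HAS3. Leaving out 1 library gave 3789 to 5372 called genes, 4 to 5 members and 42 to 59 pathway genes. Same-numbered libraries did not deviate together (correlations −0.07, −0.18 and −0.35), and other WT and KO pairs ranged from −0.21 to 0.37. With 3 libraries per genotype these values cannot settle whether the numbers mark pairs. With a replicate block 3866 genes, 4 members and 42 pathway genes were called, and 4203, 4 and 45 with the GC and length correction added. HAS1 and HYAL1 were limited by depth.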
